A study of Mus musculus with 6 samples.

Results

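Mast cells are marked here by the genes of 5 granule proteases and 3 surface receptors, chosen by symbol: Cma1, Mcpt4, Tpsb2, Tpsab1, Cpa3, Kit, Mrgprb1 and Mrgprb2. A value was available for 7 of these 8 among 18939 genes, and all 7 had at least 1 FPKM in all 6 libraries. Tpsab1 was not analysed here. The 8 genes were named with earlier results of these data known. The libraries hold messenger RNA of mouse skin. The 3 CKO libraries (replicates 1, 2 and 5) carry the genotype label basophils VAMP7 CKO, a knockout of that gene in basophils by the series' design text, and the 3 FLOX libraries (replicates 2, 3 and 5) a wild-type label. The animals were put through an MC903-OVA model, according to the title of the series, where MC903 is a vitamin D analogue that inflames skin and OVA is the antigen ovalbumin. VAMP7 is a vesicle protein that drives membrane fusion. Neither the driver of the deletion nor the age or strain of the mice is stated in the labels. Mast cells themselves carry no label of a deletion.

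Mast cells are long-lived, granule-filled cells of connective tissue that lie around vessels, nerves and hair follicles of the skin. Their granules store proteases and histamine on the proteoglycan serglycin and are released through the IgE receptor or, in connective tissue mast cells, through Mas-related receptors that sense cationic peptides. Kit, the receptor for stem cell factor, keeps them alive. Basophils share some of this equipment, chiefly Cpa3, histamine synthesis and the IgE receptor, but are short-lived cells of the blood and have proteases of their own.

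The mast cell markers were present in every library, as a sample with mast cells requires. FPKM counts fragments relative to gene length and to all mapped fragments of a library, so levels can be compared between genes. Mcpt4 and Cpa3 were the most abundant, with means over 6 libraries of 186.9 and 180.2 FPKM, followed by Cma1 at 117.4 and Tpsb2 at 69.9 FPKM. The receptors were far lower, with Mrgprb1 at 7.27, Kit at 4.86 and Mrgprb2 at 2.28 FPKM. Each gene in this order lay above the next in every library of both groups, except that the ranges of Mcpt4 and Cpa3 overlapped in FLOX skin, where Mcpt4 was the higher in 2 of 3 libraries. In bulk skin, a change in the number of mast cells and a change in RNA per cell cannot be told apart.

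None of the 7 genes passed the test over all genes, while all 7 had a higher mean in CKO skin. Their log2 fold changes, CKO minus FLOX on the log2(FPKM + 1) scale, ran from 0.08 to 0.78 with a median of 0.34, against a median of 0.03 over all 12994 tested genes. A positive fold change was found in 56.1% of tested genes. limma with Benjamini-Hochberg adjustment called 0.354% of tested genes higher in CKO and 0.6% lower. At an unadjusted p under 0.05, 5 of the 7 genes were higher (Tpsb2, Mrgprb1, Kit, Mrgprb2 and Cma1), against 12.6% of tested genes, and 0 were lower, against 8.94%. The same 5 had CKO values wholly above the FLOX values, which held for 15.5% of tested genes, and none lay wholly below, which held for 11.4%. The 7 genes were read in the same libraries and are all expressed by mast cells, so they are not 7 separate pieces of evidence. They were also chosen with earlier results of these data known. The shares over all genes are therefore given as a description and do not test the set. FLOX replicate 3 was the lowest library for 5 of the 7 genes and FLOX replicate 2 for the other 2. The highest library was CKO replicate 2 for 4 genes and CKO replicate 1 for 3.

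**Figure D1:**
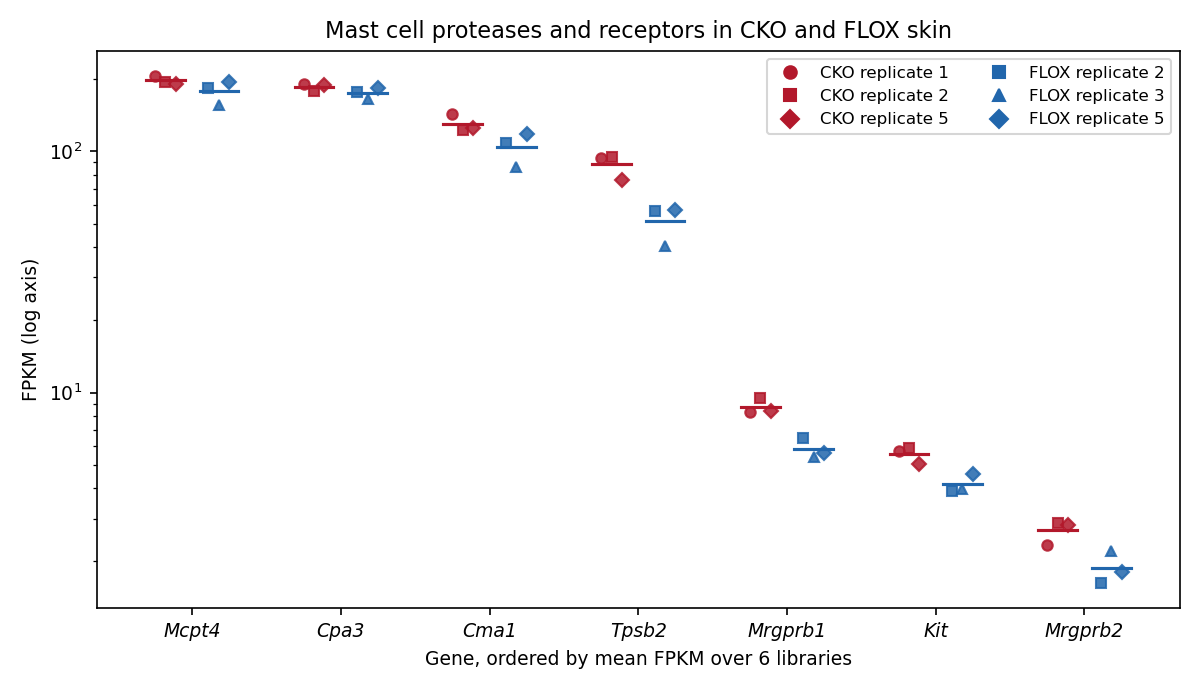
FPKM (log axis) of 7 mast cell genes in each library, ordered by mean level, with CKO in red to the left of FLOX in blue, a symbol per replicate number and a bar at each group mean. The groups stood apart for Tpsb2, Mrgprb1, Kit, Mrgprb2 and Cma1 and overlapped for Mcpt4 and Cpa3.

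The tryptase showed the largest difference. Tpsb2 (NCBI Gene ID 17229, chromosome 17) encodes the tryptase stored in connective tissue mast cells, which forms heparin-bound tetramers. It measured 93.98, 95.06 and 76.15 FPKM in CKO replicates 1, 2 and 5, against 56.55, 40.69 and 57.03 FPKM in FLOX replicates 2, 3 and 5. The lowest CKO library lay above the highest FLOX library, and CKO replicate 5 stood nearest to the FLOX group. The means were 88.4 ± 10.6 FPKM in CKO libraries and 51.4 ± 9.30 FPKM in FLOX libraries (SD, n = 3 each), a ratio of 1.72. The log2 fold change was 0.78 (SE 0.15, 95% interval 0.43 to 1.13), and it missed the threshold (limma adjusted p = 0.052). Without CKO replicate 5 it passed (log2 fold change 0.88, limma adjusted p = 0.0414). Permuting the 6 libraries exactly gave a two-sided p of 0.1 for this gene and for the other 4 whose groups stood apart, and 3 libraries against 3 allow no smaller value.

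The second tryptase, Tpsab1, is a transcribed pseudogene in the RefSeq annotation of the C57BL/6J assembly GRCm38.p6, while GENCODE M21 lists protein-coding transcripts for it. Reads of the 2 tryptases could be told apart in principle. Of the 1636 different stretches of 50 bases, the read length, in the GENCODE M21 transcripts of Tpsb2, 0 occurred in a transcript of another gene, and the same held for the 2187 of Tpsab1. Stretches with mismatches were not searched.

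The chymases differed less. Cma1 (NCBI Gene ID 17228, chromosome 14) encodes the mast cell chymase that in mice has taken on elastase-like cleavage. It measured 142.84, 123.03 and 125.29 FPKM in CKO replicates 1, 2 and 5, against 108.08, 86.52 and 118.57 FPKM in FLOX replicates 2, 3 and 5. The groups did not overlap, though FLOX replicate 5 lay close to the 2 lower CKO libraries. The log2 fold change was 0.33 (SE 0.13, 95% interval 0.03 to 0.62, limma adjusted p = 0.192), and without FLOX replicate 3 it was 0.20.

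Mcpt4 (NCBI Gene ID 17227, chromosome 14) encodes the mouse protease closest in action to human chymase. It measured 205.2, 193.94 and 190.98 FPKM in CKO replicates 1, 2 and 5, against 182.41, 155.26 and 193.7 FPKM in FLOX replicates 2, 3 and 5. FLOX replicate 5 lay above CKO replicate 5, so the groups overlapped. The log2 fold change of 0.16 (SE 0.10, limma adjusted p = 0.411) was within the spread of the libraries, and without FLOX replicate 3 it was 0.06. A small part of both chymase transcripts is shared with relatives. In Cma1, 5.38% of 50-base stretches also occur in Gm48934, and in Mcpt4 5.48% also occur in Cma2 or Mcpt9. Cma2 and Mcpt9 were themselves low, at no more than 0.85 and 0.09 FPKM in any library.

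Cpa3 (NCBI Gene ID 12873, chromosome 3), carboxypeptidase A3, trims peptides from their C-terminal end and is made by mast cells and basophils. It measured 190.62, 177.81 and 187.97 FPKM in CKO replicates 1, 2 and 5, against 176.55, 165.59 and 182.96 FPKM in FLOX replicates 2, 3 and 5. Its groups overlapped, and its spread was the smallest of the 7 genes, with coefficients of variation of 3.65% in CKO and 5.02% in FLOX skin. The log2 fold change was 0.08 (SE 0.08, 95% interval -0.09 to 0.26, limma adjusted p = 0.584), and without FLOX replicate 3 it was 0.04.

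Basophil markers had the opposite sign in the same libraries. All 7 tested basophil markers had lower means in CKO skin, with a median log2 fold change of -0.62. Over all tested genes, 56.1% had a positive fold change. limma called 2 of the 7 lower, Mcpt8 and Prss34, against 0.6% of all tested genes. Prss34 passed the filter through its FLOX values alone. Fcer1a (log2 fold change -0.09, groups overlapping) and Ms4a2 (-0.24) encode IgE receptor chains, which mast cells share. The summed level of the 7 markers was 56.4 to 97.0 FPKM in CKO libraries and 178.2 to 277.7 FPKM in FLOX libraries. Mcpt8, the basophil protease gene of the chymase locus, equalled 3.72% to 7.18% of the summed Cma1, Mcpt4 and Tpsb2 level in CKO libraries and 27.8% to 32.5% in FLOX libraries. This ratio was formed after the values were seen. The part of basophils in the Cpa3 level was not tested.

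The 3 abundant proteases with a 5′ flank on record, Cma1, Mcpt4 and Cpa3, all hold the letters GATAA, the core bound by GATA factors, in the 250 bases before the start of transcription. The windows of Mcpt4 and Cpa3, whose levels were the steadiest between the groups, are printed 5′ to 3′ on the gene's own strand from RefSeq (GRCm38.p6), with matches in capitals. They lie on the minus strand at chr14:56062311-56062560 and chr3:20242182-20242431.
Mcpt4: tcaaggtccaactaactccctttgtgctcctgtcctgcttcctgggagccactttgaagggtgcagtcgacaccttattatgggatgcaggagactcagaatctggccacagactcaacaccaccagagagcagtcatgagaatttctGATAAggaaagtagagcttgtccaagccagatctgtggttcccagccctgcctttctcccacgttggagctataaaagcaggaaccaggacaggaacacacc
Cpa3: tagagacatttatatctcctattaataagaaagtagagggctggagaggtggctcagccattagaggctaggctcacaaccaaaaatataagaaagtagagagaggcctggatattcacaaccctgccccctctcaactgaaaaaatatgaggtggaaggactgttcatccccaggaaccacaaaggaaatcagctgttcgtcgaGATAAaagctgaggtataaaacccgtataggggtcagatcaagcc
The Mcpt4 match begins 102 bases and the Cpa3 match 45 bases before the start. Both read in the direction of the gene. The Cma1 window holds the GATA letters on the other strand. Searched on both strands, they occur in 22.6% of 32851 such windows of mouse genes.

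The receptors stood apart between the groups at low levels. Mrgprb1 (NCBI Gene ID 233231, chromosome 7) encodes a Mas-related G protein-coupled receptor. It measured 8.31, 9.48 and 8.4 FPKM in CKO replicates 1, 2 and 5, against 6.47, 5.38 and 5.6 FPKM in FLOX replicates 2, 3 and 5. The lowest CKO value, 8.31 FPKM, lay above the highest FLOX value, 6.47 FPKM. The means were 8.73 ± 0.651 FPKM in CKO libraries and 5.82 ± 0.576 FPKM in FLOX libraries (SD, n = 3 each). The log2 fold change was 0.51 (SE 0.10, 95% interval 0.29 to 0.74, limma adjusted p = 0.0515), and it passed when the filter on low values was raised to 5 FPKM (limma adjusted p = 0.0493).

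Mrgprb2 (NCBI Gene ID 243979, chromosome 7) encodes the mouse counterpart of human MRGPRX2, through which substance P and many cationic drugs degranulate mast cells without IgE. It measured 2.34, 2.88 and 2.83 FPKM in CKO replicates 1, 2 and 5, against 1.63, 2.2 and 1.8 FPKM in FLOX replicates 2, 3 and 5. The groups did not overlap, but CKO replicate 1 and FLOX replicate 3 lay close together. The ratio of means was 1.43, and the log2 fold change was 0.36 (SE 0.11, limma adjusted p = 0.13).

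Kit (NCBI Gene ID 16590, chromosome 5) measured 5.7, 5.88 and 5.07 FPKM in CKO replicates 1, 2 and 5, against 3.92, 3.97 and 4.6 FPKM in FLOX replicates 2, 3 and 5. Here too the lowest CKO library lay above the highest FLOX library. The ratio of means was 1.33, and the log2 fold change was 0.34 (SE 0.10, limma adjusted p = 0.0974). Melanocytes also express Kit. The summed level of the 8 melanocyte markers was 37.2 to 40.1 FPKM in CKO libraries and 26.5 to 45.8 FPKM in FLOX libraries, and their part in the Kit level was not tested. Sox10 stood wholly higher in CKO (1.36 to 1.6 FPKM in CKO and 1.08 to 1.2 FPKM in FLOX libraries) and Tyr wholly lower (1.02 to 1.24 FPKM in CKO and 1.26 to 1.52 FPKM in FLOX libraries). Of the 6 tested melanocyte markers, limma called 0, with 0 at an unadjusted p under 0.05, and the median log2 fold change was 0.13.

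Mrgprb1 and Mrgprb2 lie in the same gene cluster, and the 250 bases before their starts are shown because the 2 receptors differed in the same direction and their flanks have letters in common. Both windows are on the minus strand of GRCm38.p6 (RefSeq), at chr7:48456343-48456592 for Mrgprb1 and chr7:48558087-48558336 for Mrgprb2, printed 5′ to 3′ with matches to the AP-1 motif, TGACTCA, and to the GATA letters in capitals.
Mrgprb1: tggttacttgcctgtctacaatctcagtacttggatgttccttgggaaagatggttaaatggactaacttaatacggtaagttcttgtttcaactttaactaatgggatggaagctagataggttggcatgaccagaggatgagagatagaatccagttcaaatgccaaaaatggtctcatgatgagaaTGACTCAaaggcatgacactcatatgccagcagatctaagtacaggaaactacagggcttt
Mrgprb2: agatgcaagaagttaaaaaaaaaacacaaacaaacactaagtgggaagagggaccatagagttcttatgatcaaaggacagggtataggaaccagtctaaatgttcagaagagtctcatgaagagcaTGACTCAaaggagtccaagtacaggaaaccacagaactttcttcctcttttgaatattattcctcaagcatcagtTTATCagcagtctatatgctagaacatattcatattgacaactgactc
Both windows hold the AP-1 letters, beginning 61 bases before the start in Mrgprb1 and 123 in Mrgprb2, and only the Mrgprb2 window holds a GATA match. The AP-1 letters occur on either strand in 4.46% of all 32851 windows. Both AP-1 matches lie in similar letters of the 2 flanks, with gtctcatg shortly before and aagg directly after. They may therefore not be 2 separate occurrences. The longest run of letters in both windows is 13 bases, aagtacaggaaac, which begins 24 bases before the start in Mrgprb1 and 107 in Mrgprb2. In all, 4 of the 6 genes with a window hold a GATA match, 2 an AP-1 match, and 0 the E-box letters CACATG, of the kind bound by MITF, which occur in 12.3% of all windows. No matches overlapped. A match describes the letters only, and binding was not measured.

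**Figure D2:**
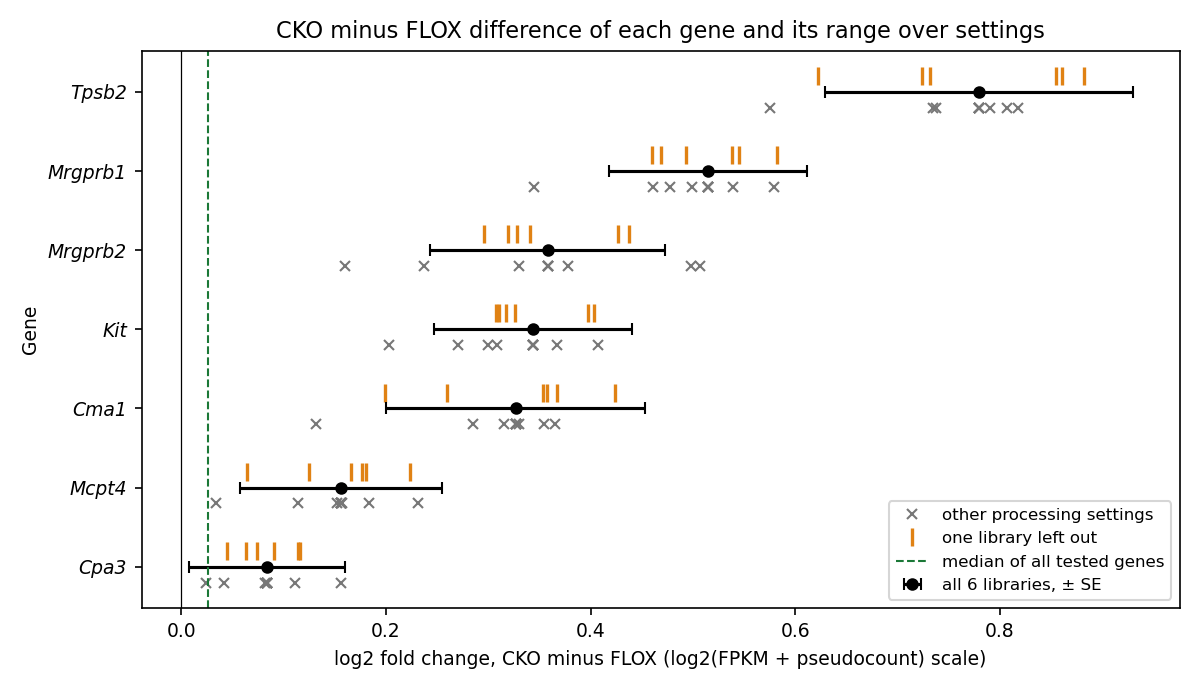
CKO minus FLOX log2 fold change of each gene with its standard error (black, all 6 libraries), with 1 library left out (orange ticks) and under other processing settings (grey crosses). Every value lies to the right of 0, and the values of Mcpt4 and Cpa3 lie nearest to the median of all tested genes (dashed green, 0.03).

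Ratios within a library compare the mast cell genes with each other without regard to how libraries were scaled. Tpsb2 equalled 27.0%, 30.0% and 24.1% of the summed Cma1 and Mcpt4 level in CKO replicates 1, 2 and 5, against 19.5%, 16.8% and 18.3% in FLOX replicates 2, 3 and 5. The tryptase was thus higher relative to the chymases in all 3 CKO libraries than in any FLOX library. The choice of this ratio was made after the values were seen. It sets the gene with the largest difference over genes that differed less, so its test adds no independent support. The mean ratio was 27.0% ± 2.96 in CKO and 18.2% ± 1.32 in FLOX skin (SD, n = 3 each; exact two-sided permutation p = 0.1, adjusted p = 0.2 over 6 ratios). Cma1 relative to Mcpt4 also did not overlap, with 66.2% ± 3.13 in CKO and 58.7% ± 2.78 in FLOX skin (exact permutation p = 0.1, adjusted p = 0.2, n = 3 each).

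The ratio of Cpa3 to the other proteases stood the other way, although Cpa3 itself had a higher mean in CKO skin (log2 fold change 0.08). The sum it is set over includes Tpsb2 and Cma1, which differed more. Cpa3 equalled 43.1%, 43.2% and 47.9% of the summed Cma1, Mcpt4 and Tpsb2 level in CKO replicates 1, 2 and 5. In FLOX replicates 2, 3 and 5 it equalled 50.9%, 58.6% and 49.5%. All 3 CKO ratios were below all 3 FLOX ratios (exact permutation p = 0.1, adjusted p = 0.2, n = 3 each). The receptor ratios overlapped between the groups. Kit equalled 1.34% ± 0.0787 of the protease sum in CKO and 1.26% ± 0.139 in FLOX skin (exact permutation p = 0.4, n = 3 each). Mrgprb1 equalled 2.11% ± 0.212 in CKO and 1.76% ± 0.213 in FLOX skin (exact permutation p = 0.2). Mrgprb2 equalled 0.650% ± 0.105 in CKO and 0.579% ± 0.174 in FLOX skin (exact permutation p = 0.5). With 3 libraries a group, no ratio could reach a p under 0.1.

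**Figure D3:**
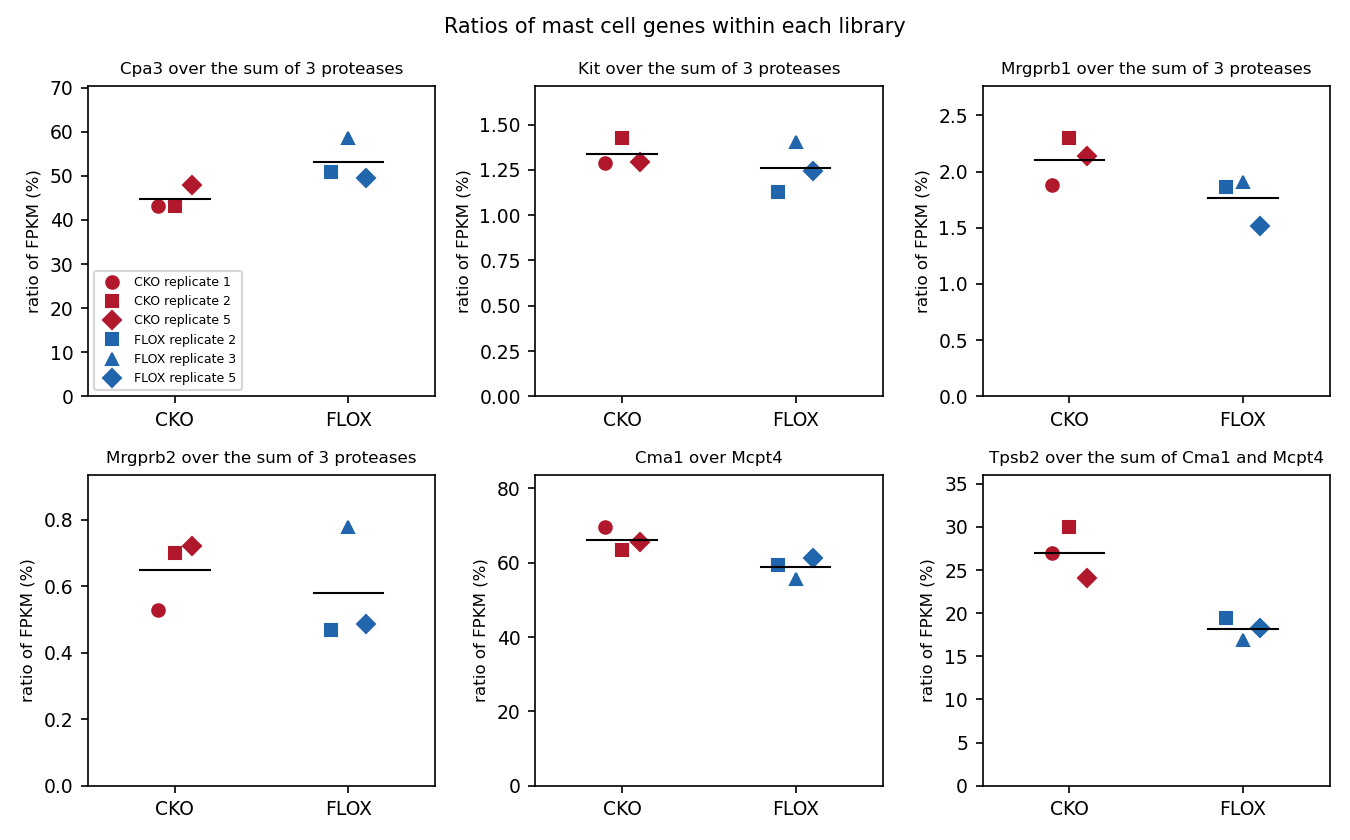
Ratio of FPKM within each library, in percent, for 6 ratios of mast cell genes, with CKO on the left and FLOX on the right of each panel, a symbol per replicate number and a bar at each group mean. The CKO and FLOX points stand apart for Tpsb2 over the chymases, Cma1 over Mcpt4 and Cpa3 over the 3 proteases, and overlap for the 3 receptors.

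Among close relatives of the proteases and receptors, limma called 3 tested genes lower in CKO skin and 0 higher. Tested were 5 genes of the chymase locus, 2 of the tryptase locus and 2 Mas-related receptors. Over all tested genes, 0.6% were called lower and 0.354% higher. Of the 3, Mcpt8 and Prss34 are basophil protease genes. Prss34 measured 0.78, 0.63 and 0.83 FPKM in CKO and 2.75, 2.13 and 2.04 FPKM in FLOX libraries. Prss34 and Mrgpra2b reached 1 FPKM in FLOX libraries only, so they passed the filter through the group where they were higher. Genes let in this way could only be called lower. Among other genes of the chymase locus, 5 were tested, and Mcpt8 fell (log2 fold change -2.22, SE 0.22, limma adjusted p = 0.047) while 4 did not pass. Neither this nor any other gene of the table was called by limma without FLOX replicate 2 or without FLOX replicate 3, where 878 and 963 genes were lower at an unadjusted p under 0.05. The mucosal mast cell proteases Mcpt1 and Mcpt2 were near the filter and had higher means in CKO skin, with overlapping groups. Mcpt1 had 2.83 ± 1.51 FPKM in CKO libraries and 1.38 ± 0.551 FPKM in FLOX libraries (log2 fold change 0.65, limma adjusted p = 0.2445). Mcpt2 had 2.94 ± 1.26 FPKM in CKO libraries and 1.66 ± 0.244 FPKM in FLOX libraries (log2 fold change 0.52, limma adjusted p = 0.256). Gzmb, a protease of cytotoxic lymphocytes, had means of 19.2 ± 5.59 FPKM in CKO libraries and 29.5 ± 6.05 FPKM in FLOX libraries. Of 2 tested genes of the tryptase locus, the basophil protease gene Prss34 fell (log2 fold change -0.92, limma adjusted p = 0.047), and Tpsg1, a membrane-anchored tryptase, did not pass (-0.05). Mrgprb8 and Mrgprb13, neighbours in family, were at most 0.99 and 1.68 FPKM. Mrgpra2b, a receptor of the wider Mas-related family, fell in CKO skin, with 0.35, 0 and 0.8 FPKM in CKO and 4.73, 2 and 4.26 FPKM in FLOX libraries (log2 fold change -1.74, limma adjusted p = 0.047).

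Other genes enriched in mast cells split. Of 9 tested, Cyp11a1, the enzyme that starts steroid synthesis, fell (17.3 ± 0.917 FPKM in CKO libraries and 28.5 ± 3.83 FPKM in FLOX libraries, limma adjusted p = 0.047), and 8 did not pass. Maob, a monoamine oxidase, had the other sign with no overlap, at 12.61, 13.03 and 12 FPKM in CKO and 9.48, 9.88 and 8.65 FPKM in FLOX libraries (log2 fold change 0.39, limma adjusted p = 0.0615). Adora3, the adenosine receptor that enhances degranulation, had a log2 fold change of -0.62 (limma adjusted p = 0.07), and Slc29a1, an adenosine transporter, one of 0.13. The median of the 9 was 0.13, with 5 positive and 4 negative.

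In the machinery that mast cells share with other leukocytes, the genes past the test were lower in CKO skin. Of 9 tested genes of granule proteoglycan and protease maturation, Srgn, which encodes serglycin, fell (453 ± 132 FPKM in CKO libraries and 1066 ± 58.9 FPKM in FLOX libraries, limma adjusted p = 0.047), and 8 did not pass. Among those 8, Ctsc, the peptidase that activates granule proteases, had means of 64.7 ± 2.76 FPKM in CKO libraries and 84.8 ± 11.1 FPKM in FLOX libraries, and Ctsl, a lysosomal protease, had a log2 fold change of -0.37. The list did not move one way: its median was 0.06, with 5 of the 9 positive and 4 negative. At an unadjusted p under 0.05, 3 of the 9 were lower and 1 was higher. limma called 0 of the 3 IgE receptor chains, with 2 lower at an unadjusted p under 0.05, and Fcer1a and Ms4a2, the chains limited to few cell types, had log2 fold changes of -0.09 and -0.24. Fcer1g, the signalling chain that many leukocytes use, had one of -0.47. The 12 genes of Kit ligand and signalling had a median of -0.41; limma called 0 of them, with 9 lower at an unadjusted p under 0.05, and Lyn at 45.9 ± 5.38 FPKM in CKO libraries and 67.1 ± 1.76 FPKM in FLOX libraries (limma adjusted p = 0.0514). The kinase genes Syk and Pik3cd had log2 fold changes of -0.63 and -0.56, and the lipid phosphatase gene Inpp5d one of -0.32. Of 8 mediator genes limma called 0, with 4 lower and 1 higher at an unadjusted p under 0.05. Their median was -0.48, with 3 positive and 5 negative. Hdc, which makes histamine, had a log2 fold change of -1.14, the prostaglandin synthase gene Ptgs2 one of -1.27, and Alox5ap, which serves leukotriene synthesis, one of -0.62.

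Gata2, a transcription factor of mast cells and basophils, had means of 10.1 ± 0.581 FPKM in CKO libraries and 15.3 ± 1.81 FPKM in FLOX libraries (log2 fold change -0.54, limma adjusted p = 0.0515). The 7 tested transcription factors all had negative fold changes, with a median of -0.46; limma called 0, with 4 lower at an unadjusted p under 0.05. Among them Spi1, the PU.1 gene of myeloid cells, had a log2 fold change of -0.58 and Lmo4 one of -0.04. Of 10 tested genes of survival and recruitment, the chemokine receptor genes Cxcr2 (log2 fold change -1.19) and Ccr1 (-1.11) fell (limma adjusted p = 0.047 for both), and 8 did not pass, with a median of -0.66 over the 10. Cxcr2 is also on the list of 8 neutrophil markers, which all had negative fold changes (median -1.19). The most abundant of the 10 was Cd63, a granule membrane tetraspanin shown on the surface after degranulation (log2 fold change -0.33). Over all tested genes, 0.954% passed in either direction.

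**Figure D4:**
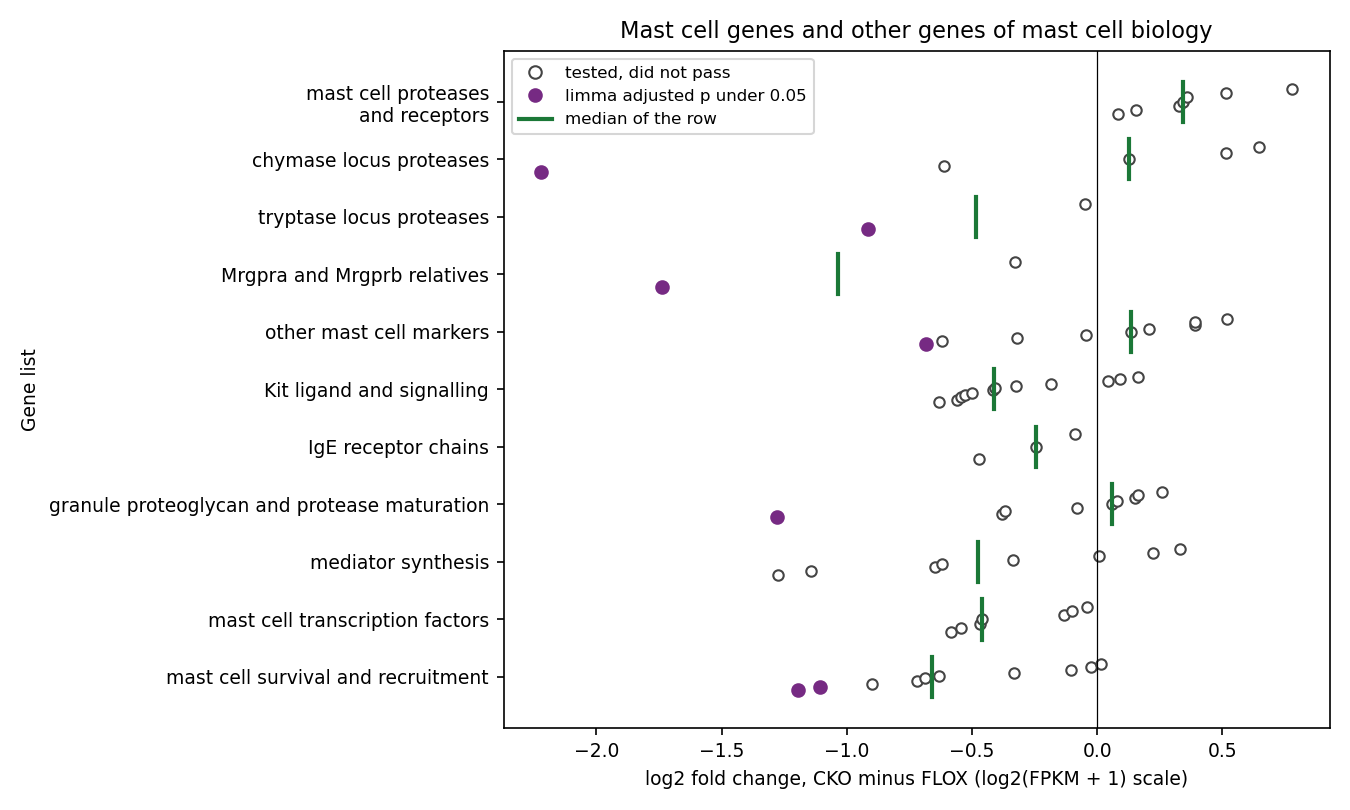
CKO minus FLOX log2 fold change of each tested gene by list, with the 7 mast cell genes in the top row, filled points for genes past the limma threshold and a green bar at each row's median. The top row lies wholly to the right of 0, while the called genes of the other rows, among them Mcpt8, Srgn, Cxcr2 and Cyp11a1, lie to the left.

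Markers of other tissues and cells also differed between the groups. The summed level of 15 skeletal muscle markers was 806.6 to 2181 FPKM in CKO libraries and 281.8 to 636.1 FPKM in FLOX libraries, and that of 6 keratinocyte markers 9424 to 12330 FPKM in CKO libraries and 7957 to 8406 FPKM in FLOX libraries. General leukocyte markers summed to 557.6 to 751.1 FPKM in CKO libraries and 875.6 to 1029 FPKM in FLOX libraries. Neutrophil markers summed to 2585 to 3425 FPKM in CKO and 4473 to 6170 FPKM in FLOX libraries, eosinophil markers to 22.2 to 30.2 FPKM in CKO and 28.7 to 52.6 FPKM in FLOX libraries, and fat cell markers to 358.6 to 847.0 FPKM in CKO and 250.1 to 497.8 FPKM in FLOX libraries. The eosinophil and fat cell sums overlapped between the groups. So did fibroblast marker sums, from the tissue in which mast cells reside, at 3033 to 4631 FPKM in CKO libraries and 3000 to 4176 FPKM in FLOX libraries. The part of these tissues and cells in the mast cell values was not tested. Vamp7, the targeted gene, was at 19.71, 19.11 and 19.73 FPKM in CKO replicates 1, 2 and 5, against 20.4, 21.51 and 20.77 FPKM in FLOX replicates 2, 3 and 5, and other skin cells also express it. Total FPKM per library ran from 556412 to 594987, and 17174 to 17287 genes had a value above 0. Muscle marker genes held 0.136% to 0.392% of total FPKM in CKO and 0.0482% to 0.108% in FLOX libraries.

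The genes whose levels followed the mean log2 level of Cma1, Mcpt4 and Tpsb2 most closely over the 6 libraries were Fto, a demethylase gene (Pearson r = 0.989), Zfp777, a zinc finger gene (0.980), Krt79, a keratin of hair follicle and sebaceous duct (0.976), Prxl2a (0.975) and Unc45a, a myosin chaperone gene (0.973). With 6 libraries in 2 groups this is a description without a test, and 34 of 9249 candidate genes exceeded 0.95. Candidates were tested genes with a mean of at least 5 FPKM, without the 3 proteases and without provisional names (Gm, Rik). Kit and Mrgprb2 lay below that mean and were not compared. Mrgprb1 and Cpa3 followed the proteases less closely, with r of 0.854 and 0.852 (ranks 242 and 251).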

How the data were processed

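The authors sequenced oligo(dT)-purified RNA as single-end reads of 50 bases, per the labels' protocols, and aligned them with HISAT, per the submitters' processing notes. How fragments were counted, and on which build and annotation, is not given in the sources used here. The authors deposited FPKM, per the file headers, rounded to 2 decimals, so read depth is unknown and no counting interval is given. No label ties a library to an animal of its own, so the p-values cover the spread between these libraries, which may be technical.

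Differences on log2(FPKM + 1) were tested with limma 3.58.1 (R 4.3.3, intensity trend, two-sided, threshold 0.05 after Benjamini-Hochberg adjustment) in 12994 of 18939 genes, those reaching 1 FPKM in at least 3 libraries. On simulated data for this comparison (12994 genes, 200 changed, 5 runs), 75.4% of 2-fold and 95.2% of 4-fold changes were recovered, with 4.24% false calls. Ratios were tested by exact permutation. The protease sum was planned with Tpsab1 and formed without it, and Tpsb2 over Cma1 and Mcpt4 was chosen after seeing the data in place of Tpsb2 over Tpsab1. Named genes are all members with a value, the called, the 2 most abundant and the 2 most changed genes of each list of mast cell biology (not of the marker lists of other cells), and 5 genes most like the proteases; Mcpt2, Cma2, Mcpt9, Mrgprb8, Maob, Sox10 and Tyr were named after their values were seen. Members and lists were chosen with earlier results of these data known. Alternatives were other pseudocounts, filters, scalings and empirical Bayes options, a replicate block, and leaving out each library. In a further alternative, skeletal muscle markers were taken out and the libraries rescaled to the same total FPKM.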

Additional observations from a re-analysis of the deposited data

How the results depend on the processing

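The fold changes of the 7 mast cell genes were positive under the other pseudocounts, the other scalings, and muscle markers taken out with libraries rescaled. For Mcpt4 and Cpa3, whose groups overlap, they were also positive with the replicate block and without each library in turn. The other filters and empirical Bayes options leave a fold change as it is. Leaving out a library cannot turn the sign of the other 5 genes. Nor can the block, which compares only libraries numbered 2 and 5. The filter at 5 FPKM left out Mrgprb2 and kept Kit through its CKO values alone. None passed in the main analysis, and 1 passed under each of 2 alternatives, Mrgprb1 with the filter at 5 FPKM and Tpsb2 without CKO replicate 5. The adjusted p ran from 0.0414 to 0.162 for Tpsb2 and from 0.0493 to 0.162 for Mrgprb1. The log2 fold change of Cpa3 was 0.04 and that of Mcpt4 0.11 after median-ratio scaling. With a pseudocount of 5, those of Mrgprb2 and Kit were 0.16 and 0.20.

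The counts over all genes, 46 higher and 78 lower in CKO, moved more. They were 0 and 1 with no filter and 0 and 0 with quantile normalization (1286 and 1346 at an unadjusted p under 0.05). Without the trend they were 15 and 17, with robust fitting 4 and 6, and with the filter at 5 FPKM 71 and 116. With muscle markers taken out and each library rescaled to the same total FPKM, 59 were higher and 138 lower. The rescaling multiplied CKO replicate 2 by 1.0517 and the other libraries by 0.981 to 0.9988. Muscle markers held at most 0.392% of total FPKM in a library. Removal and rescaling were not run apart. Leaving out each library gave 0 to 225 higher and 0 to 192 lower, with 0 of either without FLOX replicate 2 or FLOX replicate 3 (1119 and 878, and 1436 and 963, at an unadjusted p under 0.05), 2 and 1 without FLOX replicate 5, 1 and 6 without CKO replicate 2, and 225 and 192 without CKO replicate 5. The cause was not tested. Members called ranged from 0 to 1 in these fits.

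CKO and FLOX share the numbers 2 and 5 only, and the libraries so numbered had correlations of 0.132 and -0.105 in their deviations from the group means, so the numbers are not taken to pair samples. The other numbers occur in a single group, so the fit with the replicate block compares only the libraries numbered 2 and 5. In that fit, 117 genes were higher and 102 lower, and no member passed. Its log2 fold changes were 0.58 for Tpsb2, 0.50 for Mrgprb1, 0.51 for Mrgprb2 and 0.30 for Kit. They were 0.13 for Cma1, 0.03 for Mcpt4 and 0.02 for Cpa3. The 6 ratios kept their direction with a pseudocount of 1, and those of Kit, Mrgprb1 and Mrgprb2, whose groups overlap, also without each library in turn. Read depth is unknown, so the counting error behind low values such as those of Mrgprb2 cannot be given.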
